A study of Mus musculus with 10 samples.

Results

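Early grafts were set against subcutaneous tissue in which no graft had been placed. Grafts taken 1 and 3 days after transplantation, PSI and PSI-F at each time (4 arrays), formed one side, and the day 0 biopsies, one from a Diabetic and one from a Control mouse (2 arrays), formed the other. These 6 arrays were taken from the 10 of the series by their labels alone, and the grafts of days 7 and 10 were left aside. PSI stands for rat islets in a scaffold made of rat plasma, and PSI-F for the same scaffold with fibroblasts added that had been grown from mouse skin for several passages. Both were placed under the skin of the abdomen of male Swiss nu/nu mice made diabetic with streptozotocin. Diabetic mice had received streptozotocin and no graft, and Control mice were healthy and received neither. All hosts were therefore nude mice, which lack a working thymus but keep their innate leukocytes. There was 1 array per condition. The study's methods describe RNA of the best quality being chosen for hybridization, and no source used here states whether an array held RNA of 1 mouse.

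Tissue that is cut and receives foreign material goes through an ordered repair. Resident cells and platelets release chemokines, neutrophils and then monocytes leave the blood, monocytes become macrophages, and fibroblasts later lay down collagen. Macrophages are recognised by surface receptors for antibody, complement and microbial products, and their products include chemokines, acute phase proteins and proteases. Chemokines are small secreted proteins that draw particular leukocytes through particular receptors.

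Levels are log2 values per probe set, so 1 unit is a 2-fold difference. Array medians ran from 2.82 to 2.92, and levels near or below these are close to background, so that the size of a difference with 1 side there is less certain. Grafts correlated with each other at 0.984 to 0.991, with the Control biopsy at 0.962 to 0.977 and with the Diabetic biopsy at 0.948 to 0.962 across 45037 probe sets. The 2 biopsies correlated at 0.968 with each other. The Diabetic array stood apart in its added control RNA: it was brighter than the other 5 arrays in 23 of 24 poly-A control probe sets, by a median of 0.55 over the Control array, whereas the grafts differed from Control by a median of -0.19. What this difference did to the other probe sets was not tested.

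Of 45037 probe sets, 664 were called higher (1.47%) and 222 lower (0.493%) in the grafts than in the biopsies, at an adjusted p under 0.05 in limma with Benjamini-Hochberg adjustment over all of them. With 1 probe set per gene, the brightest, 397 of 18193 genes were called higher (2.18%) and 125 lower (0.687%). All 4 grafts lay above both biopsies for 2398 genes (13.2%) and below both for 2669 genes (14.7%), and no called gene had overlapping groups. The median difference over all genes was -0.03. The grafts differ among themselves by day and by fibroblasts, and the biopsies by diabetes, and these differences are in the spread that the p-values measure. The count of higher probe sets fell to 241 without the PSI graft of day 1 and to 245 without the PSI-F graft of day 1, and was 2728 without the Control biopsy. The count of lower probe sets was 29, 23 and 52 without the PSI day 1, PSI-F day 1 and PSI-F day 3 grafts, 448 without the Diabetic biopsy and 2156 without the Control biopsy, where the remaining biopsy is assumed to vary like the other arrays.

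**Figure D1:**
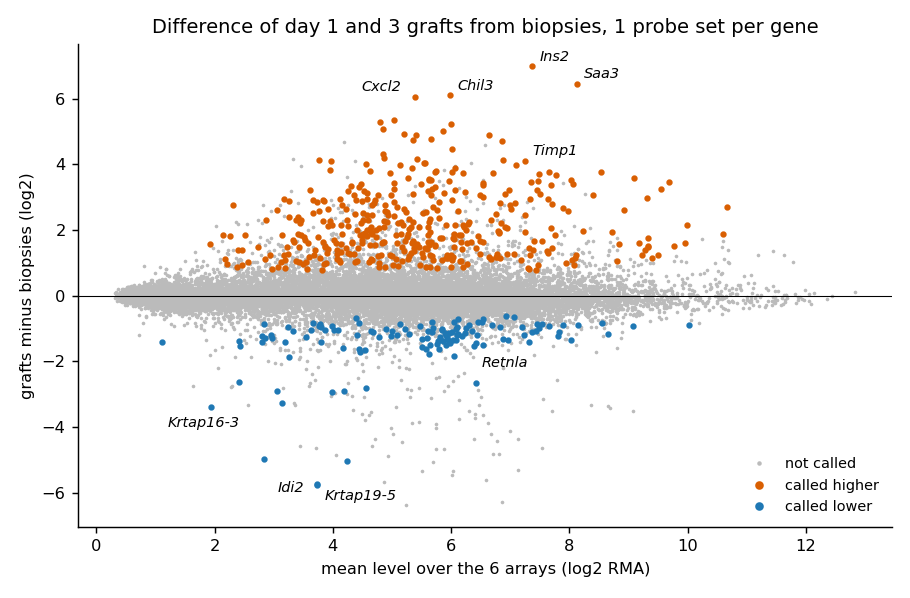
Difference of the 4 grafts from the 2 biopsies (log2) against the mean level over the 6 arrays (log2 RMA), for 1 probe set of each of 18193 genes. Orange and blue points are the 397 genes called higher and the 125 called lower, and the higher calls reach further, up to 7.00 for Ins2, than most lower calls.

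The largest differences upward were those of insulin, an acute phase protein, chemokines and macrophage receptors. The 15 genes with the largest called difference were Ins2, Saa3, Chil3, Cxcl2, Cxcl5, Ccl12, Fcgr1, Ccr1, Clec4d, Clec4e, C3ar1, Ccl7, Clec4a3, Fpr2 and Ms4a6d, whose differences ran from 7.00 down to 4.71. Downward, the 15 were Idi2, Krtap19-5, Krtap19-9b, Krtap19-3, Krtap16-3, 2310079G19Rik, Gm10229, Krtap19-4, Tent5b, Spink12, Tgm3, Krtap22-2, Pard6b, Ereg and Map3k6, from -5.78 to -1.76. Keratin-associated protein genes, named Krtap, made up 6 of these. At least a 4-fold gap between every graft and either biopsy was found for 155 probe sets upward and 7 downward, which came to 107 and 7 genes. Of the named genes described below, 75 were called, and 30 of them were also called in each of the 6 fits that left out 1 array. The others lost the call in at least 1 such fit: 43 of 75 without the PSI graft of day 1, 43 without the PSI-F graft of day 1, 13 without PSI day 3, 25 without PSI-F day 3, 25 without Diabetic and 0 without Control. Those lost without the Diabetic array were Ccl12, Clec4e, Krtap19-9b, Krtap19-4, Spink12, Krtap22-2, Map3k6, Socs3, Csf1, Tlr2, Ly96, Ccl2, S100a8, Mmp8, Arg1, Vcam1, Itga5, Ifi204, Gbp2, Col8a1, Plod2, Mmp19, Mmp3, S100a4 and Myf6. A gene is called stable below when all 6 fits called it.

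**Figure D2:**
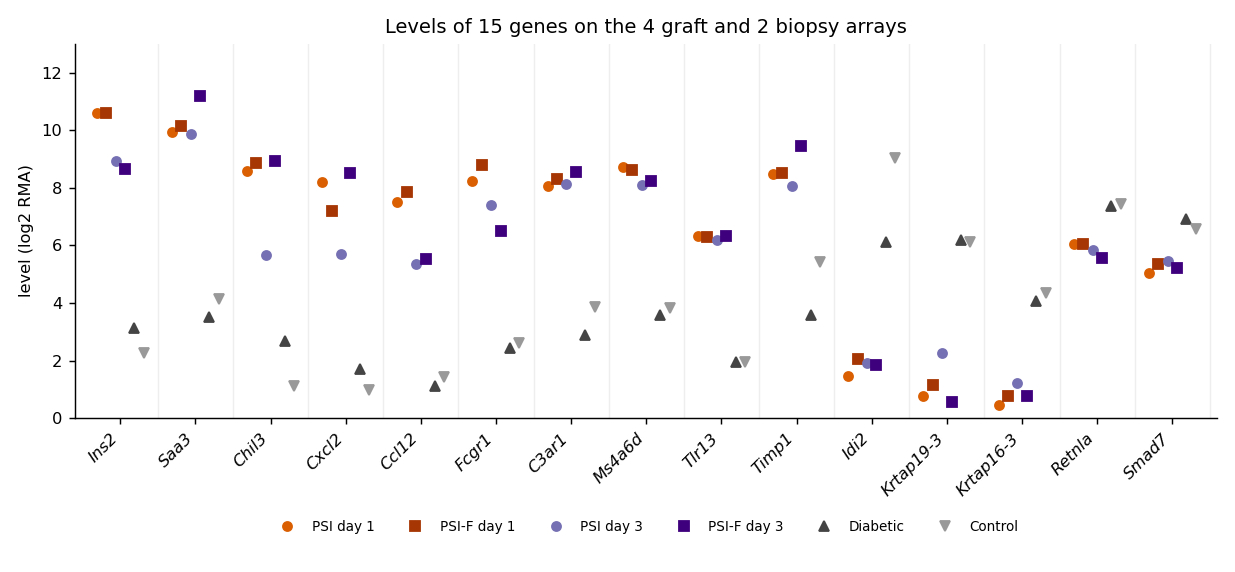
Levels (log2 RMA) of 15 genes on each of the 6 arrays, with the PSI (circles) and PSI-F (squares) grafts of day 1 (orange) and day 3 (purple) to the left of the Diabetic and Control biopsies (triangles). The 4 grafts lie above both biopsies for the first 10 genes and below both for the last 5. Tlr13 has the tightest groups, with both biopsies at the same value close to background.

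Macrophage genes were called in larger part than not. Of 27 measured genes of monocytes and macrophages, 17 were called higher and 0 lower, and all 4 grafts lay above both biopsies for 23. Over all genes 2.18% were called higher and 13.2% lay above both biopsies in all 4 grafts. The list's median difference was 3.12, against -0.03 over all genes, and the list had 15 to 20 calls with any 1 array left out. With bulk RNA, more cells of a type and more RNA per cell cannot be told apart.

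Ms4a6d, a membrane protein of macrophages, had levels of 8.72 in the PSI and 8.63 in the PSI-F graft of day 1 and 8.10 and 8.23 in those of day 3, against 3.59 in the Diabetic and 3.83 in the Control biopsy. All 4 grafts were close to each other and far above both biopsies, and the difference was 4.71 ± 0.21 (SE; adjusted p = 0.000782). Cd68, a lysosomal protein that defines macrophages, had 7.68 and 7.92 in day 1 PSI and PSI-F grafts and 7.97 and 8.23 in day 3 PSI and PSI-F grafts, against 4.01 in the Diabetic and 4.39 in the Control biopsy (difference 3.75 ± 0.19, SE; adjusted p = 0.00103). Fcgr1, the high-affinity receptor for IgG, had 8.25 and 8.80 in day 1 PSI and PSI-F grafts and 7.40 and 6.51 in day 3 PSI and PSI-F grafts, against 2.44 in the Diabetic and 2.60 in the Control biopsy, and was the brighter on day 1. Its difference of 5.22 was the largest of the list. Itgam, the alpha chain of the complement receptor CR3, was higher by 3.82, Ms4a7 by 3.73 and Mpeg1, a pore-forming protein of phagosomes, by 3.69. These 6 genes were all stable. Not every macrophage gene followed: Gpnmb was below both biopsies in all 4 grafts (difference -1.18, adjusted p = 0.235), and Lgals3 differed by 0.19 (adjusted p = 0.580). In a fit with the days apart, 17 genes of the list were called higher and 1 lower on day 1, against 1.72% and 0.247% of all genes. On day 3, 22 were called higher and 0 lower, against 2.25% and 0.17%.

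Receptors for microbial products stood beside them. Of 23 measured genes of pattern recognition, 10 were called higher and 0 lower, with a median of 1.05. Over all genes 2.18% were called higher and 0.687% lower. Tlr13, the receptor for bacterial ribosomal RNA in mice, had the smallest adjusted p of all probe sets (0.000134). It had 6.33 and 6.28 in day 1 PSI and PSI-F grafts and 6.19 and 6.33 in day 3 PSI and PSI-F grafts, against 1.96 in the Diabetic and 1.96 in the Control biopsy, a difference of 4.32 ± 0.12 (SE). Both biopsies had the same value, 1.9584, which is below the array medians and close to background. Their SD was therefore 0.0000, and the small SE and adjusted p rest in part on it. Tlr1, which pairs with Tlr2 to bind lipopeptides, was higher by 4.15 and also stable. Its partner Tlr2 was higher by 2.44, and Ly96, the co-receptor of Tlr4, by 2.22, and both lost the call without some arrays (adjusted p up to 0.113 and 0.136). The C-type lectin Clec4e, which binds mycobacterial and cell-death ligands, had 7.34, 7.60 and 7.53 in the PSI day 1, PSI-F day 1 and PSI-F day 3 grafts and 4.95 in the PSI graft of day 3, against 1.52 in the Diabetic and 2.31 in the Control biopsy. Its neighbour Clec4d was higher by 5.03 and stable, whereas Clec4e had an adjusted p of up to 0.105 with an array left out.

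The stretch before the transcription start of Tlr13 is shown because this gene had the smallest adjusted p and because the letters AGAGGAAG occur there. PU.1, a transcription factor of myeloid cells, is known to bind these letters. PU.1 itself is the product of Spi1, which was higher by 2.24 in the grafts and was stable (Spi1 was chosen after its value was seen). The 250 bases (RefSeq, GRCm38.p6, chrX:106143025-106143274, plus strand) are printed 5′ to 3′ with the match in capitals.
Tlr13: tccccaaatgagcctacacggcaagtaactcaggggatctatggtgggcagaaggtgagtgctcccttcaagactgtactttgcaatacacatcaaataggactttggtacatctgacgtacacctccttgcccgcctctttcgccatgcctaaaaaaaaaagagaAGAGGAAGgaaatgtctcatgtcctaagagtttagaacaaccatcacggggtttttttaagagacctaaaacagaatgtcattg
The match begins 84 bases before the start. Searched on both strands, these letters were found in the same window of 4.48% of 14452 genes with a RefSeq promoter, of 37 of 311 genes called higher (11.9%), of 4 of 95 called lower (4.21%) and of 4 of 20 genes of the macrophage list. A match is a description of the sequence and does not show binding.

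Macrophages are often described by the genes that interleukin-4 raises. Of 13 such genes measured, 2 were called higher and 1 lower over both days, against 2.18% and 0.687% of all genes. The called genes thus moved apart. Chil3, a chitinase-like lectin, had 8.60 and 8.86 in day 1 PSI and PSI-F grafts and 5.67 and 8.93 in day 3 PSI and PSI-F grafts, against 2.69 in the Diabetic and 1.12 in the Control biopsy. Its difference was 6.11 ± 0.96 (SE; adjusted p = 0.0301), and the PSI graft of day 3 was far below the other grafts. Arg1, the arginase of the urea cycle that macrophages also use, was higher by 3.52 (adjusted p = 0.0320), with 10.49 in the PSI-F graft of day 3 and 8.64 to 8.92 in the other 3, against 5.12 and 6.24 in the Diabetic and Control biopsies. Retnla went the other way: 6.04, 6.06, 5.85 and 5.56 in the PSI day 1, PSI-F day 1, PSI day 3 and PSI-F day 3 grafts, against 7.37 in the Diabetic and 7.44 in the Control biopsy. This secreted resistin-like protein, also made by fat tissue, fell by 1.53 on the log2 scale (adjusted p = 0.0102) and was stable, whereas Chil3 and Arg1 were not (adjusted p up to 0.113 and 0.0957). Over both days Mrc1 and Folr2, receptors of resident macrophages, differed by 2.25 and 1.75 without passing the test (adjusted p = 0.0850 and 0.112), and Il4ra by 1.41 (adjusted p = 0.0877). In a fit with the days apart, 4 of the 13 were called higher and 1 lower on day 3, against 2.25% and 0.17% of all genes. Mrc1 and Folr2 were among those higher (2.97 and 2.39, adjusted p = 0.00964 and 0.0104).

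**Figure D3:**
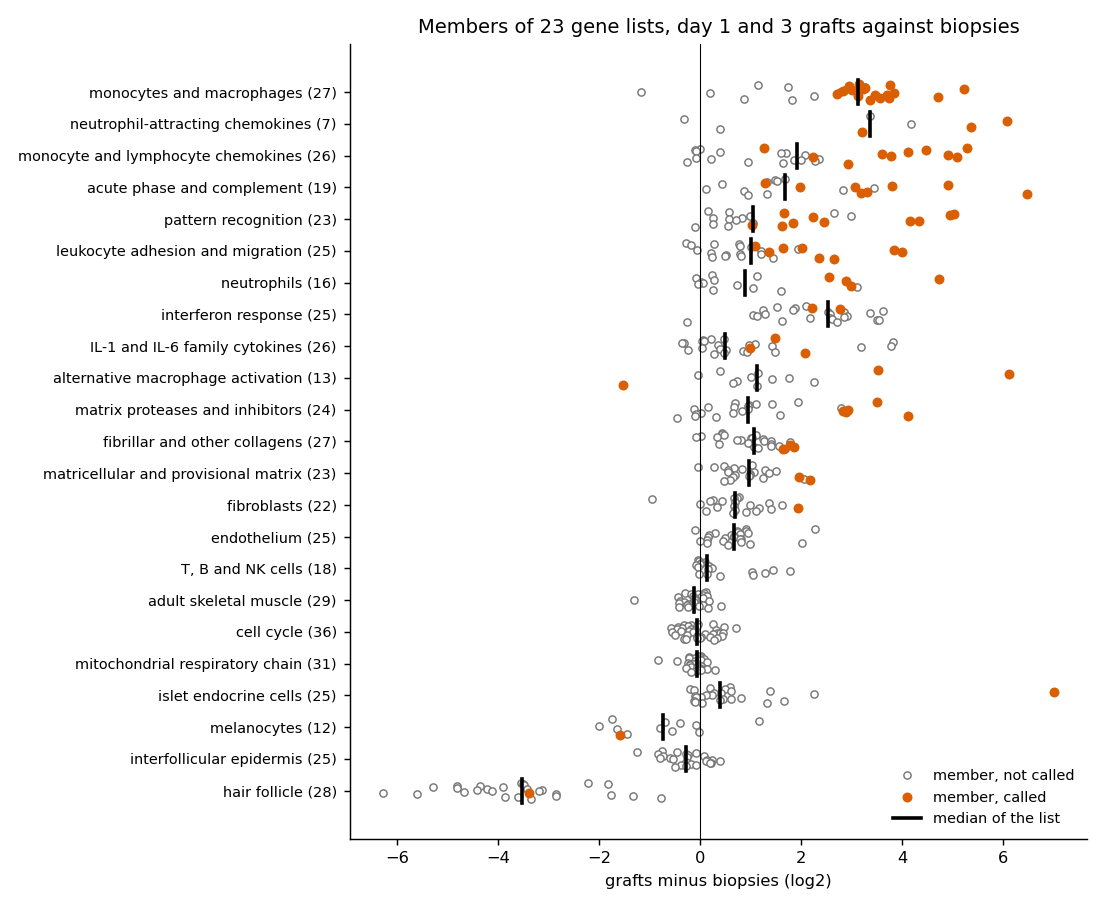
Difference of the 4 grafts from the 2 biopsies (log2) for each measured member of 23 gene lists, with filled points for called members, open points for the others and a bar at the list's median. Macrophage genes cluster around 3.12, muscle, cell cycle and respiratory chain genes around 0, and hair follicle genes around -3.53 with 1 call.

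Acute phase and complement genes rose in part. Of 19 measured, 8 were called higher and 0 lower, with a median of 1.68, where 2.18% of all genes were called higher. Saa3, a serum amyloid A made outside the liver by macrophages and fat cells, had 9.93 and 10.15 in day 1 PSI and PSI-F grafts and 9.86 and 11.19 in day 3 PSI and PSI-F grafts, against 3.50 in the Diabetic and 4.15 in the Control biopsy. The difference of 6.46 ± 0.40 (SE; adjusted p = 0.00156) was the second largest of all called genes. C3ar1 and C5ar1, the receptors for the complement fragments C3a and C5a, were higher by 4.90 and 3.79, Ptx3, a soluble pentraxin, by 3.30 and Cfb, factor B of the alternative complement pathway, by 3.05. These 5 were stable, and Saa1 was not, with a difference of 3.19 and an adjusted p of up to 0.139. Saa1 has a close copy in the genome, and its probe set may bind both.

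Saa3 is shown as the brightest of these genes, with letters of the TTGCNNAA kind in capitals, a core that C/EBP factors of the acute phase response are known to bind. The 250 bases lie at chr7:46715677-46715926 (minus strand, RefSeq, GRCm38.p6). They fall inside the span listed for the gene, 46711998 to 46719615, so the start used here is not the outermost one.
Saa3: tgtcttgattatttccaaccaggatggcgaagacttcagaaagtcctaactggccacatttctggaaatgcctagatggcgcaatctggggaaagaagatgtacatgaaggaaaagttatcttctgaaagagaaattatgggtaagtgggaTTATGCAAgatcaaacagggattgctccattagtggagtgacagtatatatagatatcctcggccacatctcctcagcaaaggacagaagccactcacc
The match, on the reverse strand, begins 99 bases before the start. Such a match was found on either strand in 9.65% of the 14452 genes, in 12.9% of the 311 called higher and in 13.7% of the 95 called lower. It occurred in 8 of 13 acute phase and complement genes with a promoter (61.5%) and in 9 of 16 matrix proteases and inhibitors (56.2%).

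Chemokines and their receptors were among the steepest rises. For monocyte and lymphocyte chemokines, 10 of 26 measured genes were called higher and 0 lower, with a median of 1.92. The share of all genes called higher was 2.18%. Ccl12, a ligand of Ccr2, had 7.51 and 7.85 in day 1 PSI and PSI-F grafts and 5.36 and 5.54 in day 3 PSI and PSI-F grafts, against 1.13 in the Diabetic and 1.44 in the Control biopsy. It was higher by 5.28 ± 0.74 (SE; adjusted p = 0.0207), and the day 1 grafts were brighter than those of day 3. Ccl7 and Ccl2, further ligands of Ccr2, were higher by 4.90 and 4.46, Ccl3 by 4.11 and Ccl9, a ligand of Ccr1, by 3.77. Ccr1 itself had 6.76 and 6.64 in day 1 PSI and PSI-F grafts and 5.91 and 6.86 in day 3 PSI and PSI-F grafts, against 0.82 in the Diabetic and 2.09 in the Control biopsy (difference 5.09 ± 0.40, SE; adjusted p = 0.00288). Ccr1 and Ccl9 were stable. Ccl7 lost its call without the PSI graft of day 1, and Ccl12, Ccl2 and Ccl3 without either graft of day 1, among others (adjusted p up to 0.0618, 0.0750, 0.105 and 0.0757).

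Neutrophil chemoattractants and neutrophil markers were called in part. Of 7 chemokines and receptors that attract neutrophils, 3 were called higher, with a median of 3.35, and of 16 neutrophil genes 4 were called higher, with a median of 0.88. Over all genes 2.18% were called higher. Cxcl2, a ligand of Cxcr2, had 8.20 and 7.20 in day 1 PSI and PSI-F grafts and 5.71 and 8.53 in day 3 PSI and PSI-F grafts, against 1.72 in the Diabetic and 0.97 in the Control biopsy (difference 6.06 ± 0.75, SE; adjusted p = 0.0130). Cxcl5, another such ligand, was higher by 5.36, with its highest level, 8.54, in the PSI-F graft of day 3. Ppbp, a chemokine stored in platelets, was higher by 3.21 and the only stable one of the 3, and Pf4, its partner in platelet granules, by 2.95. Cxcl3 and Cxcl1 differed by 4.16 and 3.35 but did not pass the test (adjusted p = 0.0646 and 0.0694). Their receptor Cxcr2 was near background everywhere, with 1.52 to 2.83 in grafts against 2.06 and 1.65 in the Diabetic and Control biopsies. Of the neutrophil markers, Fpr2, a receptor for formyl peptides that macrophages also carry, was higher by 4.73, S100a8, a calcium-binding protein of neutrophils and monocytes, by 2.99, Mmp8, the neutrophil collagenase, by 2.88 and Csf3r, the receptor for G-CSF, by 2.55. None of these 4 was stable (adjusted p up to 0.122), and the list had 0 calls without PSI day 1, PSI-F day 1 or PSI-F day 3. S100a9, the partner of S100a8, had 10.31 and 9.75 on day 1 in PSI and PSI-F and 7.42 and 9.69 on day 3, against 5.82 and 6.54 in the Diabetic and Control biopsies, and did not pass the test (adjusted p = 0.0980). Trem1 differed by 1.59 (adjusted p = 0.238).

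Cxcl2 is shown because it is the most changed chemokine and holds a pair of matches to GGG and TTTCC set 2 bases apart, a form of the sequence bound by NF-kB, a factor that inflammatory signals activate. The 250 bases are those at chr5:90903649-90903898 (plus strand, RefSeq, GRCm38.p6).
Cxcl2: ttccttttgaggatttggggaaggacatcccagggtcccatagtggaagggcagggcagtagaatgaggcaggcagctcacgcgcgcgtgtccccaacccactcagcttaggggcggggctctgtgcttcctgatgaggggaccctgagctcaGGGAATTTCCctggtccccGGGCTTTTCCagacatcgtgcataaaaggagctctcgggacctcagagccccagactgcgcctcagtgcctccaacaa
The matches begin 97 and 78 bases before the start. On either strand the letters occurred in 1.69% of the 14452 genes, in 15 of 311 called higher (4.82%), in 0 of 95 called lower and in 3 of 6 neutrophil-attracting chemokines and receptors with a promoter.

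Of 25 adhesion molecules of leukocytes and vessels, 8 were called higher and 0 lower (median 1.00), where 2.18% of all genes were called higher. With 1 graft left out, 3 to 8 were called higher. Itgb2, the common beta chain of leukocyte integrins, was 8.37 and 8.41 in day 1 PSI and PSI-F grafts and 8.02 and 8.92 in day 3 PSI and PSI-F grafts, against 4.36 in the Diabetic and 4.52 in the Control biopsy (difference 3.99 ± 0.24, SE; adjusted p = 0.00154). Itga4, a chain of the integrin VLA-4, was higher by 2.01 and Vcam1, its ligand on endothelium, by 2.65. Selplg, the ligand of P-selectin, was higher by 2.35 and Itga5, a chain of the fibronectin receptor, by 1.63. Itgb2, Itgam and Itga4 were stable, and Vcam1, Selplg and Itga5 were not (adjusted p up to 0.0707, 0.0747 and 0.101).

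Cytokines of the interleukin-1 and interleukin-6 families showed wide spread within the groups. Of 26, 3 were called higher and 0 lower (median 0.49), where 2.18% of all genes were called higher. None of the 3 was stable. Socs3, an inhibitor that interleukin-6 signalling induces, was higher by 2.07. Csf1, the growth factor of macrophages, was higher by 1.48 and Il6st, the shared receptor chain gp130, by 0.98. Il1b had 7.78 and 7.03 in day 1 PSI and PSI-F grafts and 5.74 and 8.04 in day 3 PSI and PSI-F grafts, against 2.24 in the Diabetic and 4.42 in the Control biopsy. Il6 had 4.06 and 3.12 in day 1 PSI and PSI-F grafts and 3.76 and 6.47 in day 3 PSI and PSI-F grafts, against 0.66 in the Diabetic and 1.66 in the Control biopsy. Both lay above the biopsies in all 4 grafts, and neither passed the test (Il1b 3.82, adjusted p = 0.0639, and Il6 3.19, adjusted p = 0.130). Il33, an alarmin of stromal cells, differed by 3.77 (adjusted p = 0.0533). Chil1, a second chitinase-like gene, overlapped: 6.73 to 8.37 in grafts against 6.19 in the Diabetic and 7.49 in the Control biopsy.

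Of 25 interferon-induced genes, all 4 grafts lay above both biopsies for 21, where they did for 13.2% of all genes. Over both days 2 were called higher, Ifi204 by 2.77 and Gbp2 by 2.21, neither stable. In a fit with the days apart, 16 of the 25 were called higher on day 1, where 313 of all genes were (1.72%), and 1 on day 3, where 410 of all genes were (2.25%). The list's median difference was 3.68 on day 1 and 1.26 on day 3. Ifit1, which blocks the translation of viral RNA, had 6.52 in PSI and 7.41 in PSI-F on day 1 and 4.75 and 3.09 on day 3, against 1.30 in the Diabetic and 2.34 in the Control biopsy. Rsad2, the antiviral enzyme viperin, had 8.84 and 9.70 in day 1 PSI and PSI-F grafts and 6.54 and 5.81 in day 3 PSI and PSI-F grafts, against 4.95 in the Diabetic and 3.44 in the Control biopsy. In both genes the PSI-F graft was the higher on day 1 and the lower on day 3. Their day 1 differences passed the test (Ifit1 5.14, adjusted p = 0.0250, and Rsad2 5.08, adjusted p = 0.0187), and their day 3 differences did not (Ifit1 2.10, adjusted p = 0.245, and Rsad2 1.98, adjusted p = 0.214). The difference between the days was -3.04 for Ifit1 and -3.10 for Rsad2, with no gene called between the days at an adjusted p under 0.05. Oasl2 and Iigp1 differed by 3.50 and 3.36 over both days without passing the test (adjusted p = 0.0702 and 0.112).

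The stretch before Ifit1 is shown with its matches to a pair of GAAA set 2 bases apart, the core of the element that interferon-activated factors bind (chr19:34640639-34640888, plus strand, RefSeq, GRCm38.p6).
Ifit1: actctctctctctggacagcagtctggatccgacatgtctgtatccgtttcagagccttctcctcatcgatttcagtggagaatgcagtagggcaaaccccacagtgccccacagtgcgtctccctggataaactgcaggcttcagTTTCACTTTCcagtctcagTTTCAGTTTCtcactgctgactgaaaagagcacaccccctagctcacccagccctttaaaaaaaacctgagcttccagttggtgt
Both matches are on the reverse strand and begin 104 and 85 bases before the start. The letters were found on either strand in 3.13% of the 14452 genes. They occurred in 26 of 311 called higher (8.36%), in 5 of 95 called lower (5.26%) and in 8 of 18 interferon-induced genes with a promoter.

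Of 27 collagens and collagen-processing enzymes, 2 were called higher on day 1 and 14 on day 3, with medians of 0.60 and 1.60. Among all genes 1.72% were called higher on day 1 and 2.25% on day 3. Col1a2, a chain of type I collagen, was higher on day 3 by 1.60 (adjusted p = 0.0216) and differed by 0.45 on day 1. Col5a2, a chain of type V collagen, was higher on day 3 by 2.14 (adjusted p = 0.00985) and differed by 0.65 on day 1 (both collagens were chosen after their values were seen). Over both days 3 were called: Loxl3, a lysyl oxidase that cross-links collagen, was higher by 1.86 and stable, Col8a1, a short-chain collagen of vessels, by 1.77 and Plod2, a lysyl hydroxylase, by 1.64. Loxl3 had 5.40 and 5.41 in day 1 PSI and PSI-F grafts and 5.84 and 6.10 in day 3 PSI and PSI-F grafts, against 3.98 in the Diabetic and 3.68 in the Control biopsy. Col8a1 and Plod2 lost the call without some arrays (adjusted p up to 0.115 and 0.0854). Col5a3, Serpinh1, a collagen chaperone, and Lox differed by 1.77, 1.67 and 1.57 with adjusted p of 0.222, 0.112 and 0.221. No collagen gene was called between day 3 and day 1, and no probe set was called on day 3 without the PSI-F graft of that day or without either graft of day 1.

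Of 23 matricellular and provisional matrix genes, 0 were called on day 1 and 5 on day 3 (medians 0.42 and 1.19). Of 22 fibroblast genes 0 were called on day 1 and 7 on day 3 (medians 0.34 and 1.03). The shares of all genes called higher were 1.72% on day 1 and 2.25% on day 3. Fn1, fibronectin, the main protein of provisional matrix, had 8.60 and 8.54 in day 1 PSI and PSI-F grafts and 9.42 and 10.39 in day 3 PSI and PSI-F grafts, against 7.68 in the Diabetic and 7.79 in the Control biopsy. It was higher on day 3 by 2.16 (adjusted p = 0.0370) and differed by 0.83 on day 1 (adjusted p = 0.331). Vcan, a large proteoglycan, was higher over both days by 2.17 and Thbs4, a thrombospondin of tendon and muscle, by 1.95, and S100a4, a calcium-binding protein of fibroblasts and macrophages, by 1.94. None of the 3 was stable (adjusted p up to 0.0695, 0.118 and 0.102). Lum and Sfrp2, secreted by fibroblasts, were higher on day 3 by 1.99 and 2.26 (adjusted p = 0.0219 and 0.0324), and Pdgfra and Prrx1 by 1.94 and 1.47 (adjusted p = 0.0437 and 0.0225). Levels of Pdgfra were 7.28 and 7.19 in day 1 PSI and PSI-F grafts and 7.68 and 8.11 in day 3 PSI and PSI-F grafts, against 6.36 in the Diabetic and 5.55 in the Control biopsy. Tnfaip6, Fbln2 and Thy1 differed over both days by 2.06, 1.28 and 1.10 without passing the test. Mouse fibroblasts were added to the PSI-F grafts only, and their part in these values was not tested.

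Of 24 matrix proteases and inhibitors, 5 were called higher and 0 lower over both days (median 0.94), and 3 were called higher on day 1 and 5 on day 3. Shares of all genes called higher were 2.18% over both days, 1.72% on day 1 and 2.25% on day 3. Timp1, the inhibitor of matrix metalloproteinases, had 8.47 and 8.51 in day 1 PSI and PSI-F grafts and 8.05 and 9.44 in day 3 PSI and PSI-F grafts, against 3.60 in the Diabetic and 5.41 in the Control biopsy. Adam8, a protease of leukocytes, was higher by 3.49 and stable, and the metalloproteinases Mmp19, Mmp8 and Mmp3 by 2.91, 2.88 and 2.81. Timp1 lost the call without either graft of day 1, and Mmp19 and Mmp3 without those and others (adjusted p up to 0.0744, 0.116 and 0.0631). Mmp12, the macrophage elastase, overlapped, since the Control biopsy had 4.58 and the Diabetic biopsy 0.93, against 4.34 to 7.11 in grafts.

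**Figure D4:**
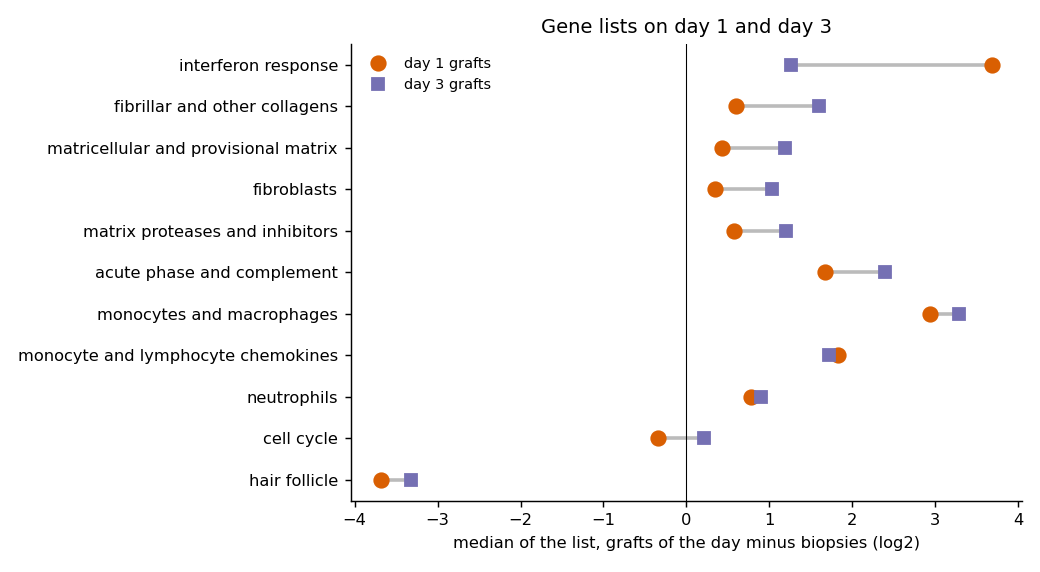
Median difference from the biopsies (log2) of 11 gene lists in the grafts of day 1 (circles) and of day 3 (squares), both set against the same 2 biopsies. The interferon list lies at 3.68 on day 1 and 1.26 on day 3, and the collagen list at 0.60 and 1.60.

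Between the days themselves no gene was called. At an unadjusted p under 0.01, which is not a call, 174 genes were higher on day 3 (0.956%) and 103 lower (0.566%), and the largest of these are given as a description. Lower on day 3 were Slfn3, Mx1, Ifit1bl1, Cmpk2, Rsad2, Orm2, Ifit3 and Ifit1, by 3.47 to 3.04, all interferon-induced genes apart from the acute phase protein Orm2. Slfn3 had 3.32 in PSI and 2.75 in PSI-F on day 3 and 6.16 and 6.86 on day 1, with 0.70 in the Diabetic and 0.97 in the Control biopsy. Higher on day 3 were Ccn3, Tfpi2, Cthrc1, Gpr34, Hmox1, C1qb, Cd163 and Trem2, by 2.72 to 1.95. Cthrc1, a secreted protein of matrix-forming fibroblasts, had 7.15 in PSI and 7.23 in PSI-F on day 3 and 5.07 and 4.84 on day 1, with 3.65 in the Diabetic and 3.97 in the Control biopsy. Trem2, a lipid receptor of macrophages, had 5.83 and 6.28 on day 3 in PSI and PSI-F and 4.02 and 4.18 on day 1, with 3.56 and 2.98 in the Diabetic and Control biopsies. Hmox1, which breaks down haem, Cd163, which takes up haemoglobin, and C1qb, a chain of complement C1q, are further macrophage products. With 2 grafts a day the smallest adjusted p was 0.169. Day 1 had 45 genes called lower than the biopsies (0.247%) and day 3 had 31 (0.17%). Of probe sets, 379 were called in the same direction on both days, 0 in opposite directions, 241 on day 1 only and 332 on day 3 only, and these lists share their biopsies. Without either graft of day 1 neither day had a call.

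Genes of the transplanted cells were led by insulin. Ins2 had 10.60 in the PSI and 10.59 in the PSI-F graft of day 1 and 8.95 and 8.67 in those of day 3, against 3.13 in the Diabetic and 2.27 in the Control biopsy. It was the most changed of all called genes (7.00 ± 0.63, SE; adjusted p = 0.00471), stable, and lower on day 3 than on day 1 in both kinds of graft. The islets came from rats and the probes were made for mice, so rat RNA is seen only where it binds them, and the levels are not those of the islets. Of 25 measured islet genes 1 was called over both days, and 4 on day 1 and 2 on day 3. The shares of all genes called higher were 2.18% over both days, 1.72% on day 1 and 2.25% on day 3. Neurod1, a transcription factor of beta cells, had 4.13 and 3.85 in day 1 PSI and PSI-F grafts and 2.31 and 2.16 in day 3 PSI and PSI-F grafts, against 1.09 in the Diabetic and 0.64 in the Control biopsy (day 1 difference 3.12, adjusted p = 0.00527). Scg5, a chaperone of prohormone convertase, and Ppy, pancreatic polypeptide, were called on day 1 only (2.68 and 1.53, adjusted p = 0.0104 and 0.0257). Iapp and Sst, islet amyloid polypeptide and somatostatin, differed over both days by 1.38 and 1.32 (adjusted p = 0.178 and 0.213).

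Exocrine and Reg family genes had no call among 19. Reg1 had 0.78 and 1.34 in day 1 PSI and PSI-F grafts and 1.55 and 4.80 in day 3 PSI and PSI-F grafts, against 0.82 in the Diabetic and 0.77 in the Control biopsy. Reg3g had 1.37 and 1.76 in day 1 PSI and PSI-F grafts and 2.61 and 5.05 in day 3 PSI and PSI-F grafts, against 1.25 in the Diabetic biopsy and a like level in the Control biopsy. In both genes the PSI-F graft of day 3 alone was well above background. Cela1, an elastase, differed by 1.12 (adjusted p = 0.257), and Prss2, Sycn and Cel differed by 0.31 or less in size.

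Hair genes had low values in most grafts. Of 28 measured hair follicle genes all 4 grafts lay below both biopsies for 22, with a median of -3.53, and yet 1 was called lower. Among all genes 14.7% lay below both biopsies and 0.687% were called lower. The PSI graft of day 3 stood apart: its median level over the list was 8.13, against 5.19, 3.98 and 3.17 in the PSI day 1, PSI-F day 1 and PSI-F day 3 grafts and 9.12 and 9.64 in the Diabetic and Control biopsies. Without that array 12 of the 28 were called lower and the median was -4.53. Krtap15, for example, had 9.65 in the PSI graft of day 3, 1.92, 4.77 and 2.74 in the PSI day 1, PSI-F day 1 and PSI-F day 3 grafts, and 10.64 and 11.47 in the Diabetic and Control biopsies. Krt33a, Krt31 and Krt34, keratins of the hair shaft, had the same pattern, with 8.83 to 9.55 in the PSI graft of day 3 and 2.49 to 5.51 in the other grafts, against 9.37 to 10.35 in the Diabetic and 10.35 to 10.99 in the Control biopsy. Krtap8-1 differed by -5.61 (adjusted p = 0.161). The hosts were nude mice, and how much skin with hair follicles each piece of tissue held is not given. Fewer follicles and less RNA per follicle cannot be told apart.

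Keratin-associated proteins fill the hair shaft between its keratin filaments and are encoded in clusters. On chromosome 16, 20 measured Krtap genes lay between positions 88646824 and 89571183 (GRCm38.p6), and 7 of them were called lower and 0 higher, with all 4 grafts below both biopsies for 18. Their median difference was -4.82. Among all genes 14.7% lay below both biopsies and 0.687% were called lower. This region was chosen after the values were seen. Of 18 Krtap genes elsewhere 0 were called and 6 lay below both biopsies, with a median of -1.72. The called ones were Krtap19-2, Krtap19-3, Krtap19-4, Krtap19-5, Krtap19-9b, Krtap16-3 and Krtap22-2, which lie next to each other between 88873665 and 89010759. Krtap19-3 had 0.76 and 1.15 in day 1 PSI and PSI-F grafts and 2.25 and 0.55 in day 3 PSI and PSI-F grafts, against 6.20 in the Diabetic and 6.11 in the Control biopsy (difference -4.98 ± 0.44, SE; adjusted p = 0.00445). Krtap16-3 had 0.45 and 0.78 in day 1 PSI and PSI-F grafts and 1.23 and 0.77 in day 3 PSI and PSI-F grafts, against 4.09 in the Diabetic and 4.33 in the Control biopsy (difference -3.40 ± 0.22, SE; adjusted p = 0.00179). Both were stable and near background in every graft, including the PSI graft of day 3. In their neighbours Krtap13-1, Krtap14 and Krtap7-1 that graft had 9.52, 7.23 and 6.45, against 10.14, 8.74 and 7.83 in the Diabetic and 11.13, 10.22 and 9.47 in the Control biopsy, and none was called. Members of the Krtap19 family resemble each other, so their probe sets may bind more than 1 of them and are not independent.

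**Figure D5:**
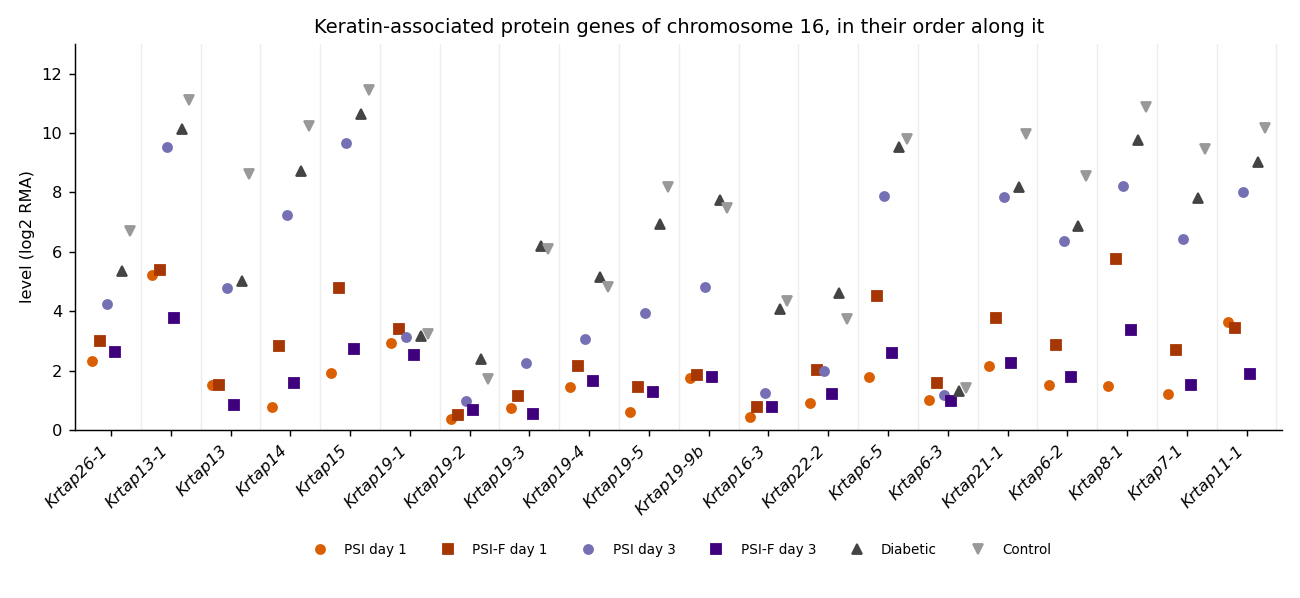
Levels (log2 RMA) of 20 Krtap genes of chromosome 16, placed in their order along it, with the 4 grafts left of the 2 biopsies in each column. The PSI graft of day 3 (light purple circles) is at 9.65 for Krtap15 and at 1.23 for Krtap16-3, and lies above the other 3 grafts for most of the genes.

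The 250 bases before Krtap16-3 are shown as those of the most clearly separated hair gene (chr16:88962874-88963123, minus strand, RefSeq, GRCm38.p6), with TATAAA, the TATA box, in capitals.
Krtap16-3: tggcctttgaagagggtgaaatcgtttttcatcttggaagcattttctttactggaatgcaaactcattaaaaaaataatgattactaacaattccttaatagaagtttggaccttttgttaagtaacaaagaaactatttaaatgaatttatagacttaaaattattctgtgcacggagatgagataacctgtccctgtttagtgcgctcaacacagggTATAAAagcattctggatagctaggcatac
The box begins 30 bases before the start. It was searched on the gene's own strand and found in 6.73% of the 14452 genes, in 14 of 95 genes called lower (14.7%), in 27 of 311 called higher (8.68%) and in 12 of 20 hair follicle genes with a promoter.

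Lower calls outside the Krtap family were led by Idi2. This isopentenyl diphosphate isomerase had 1.46 and 2.04 in day 1 PSI and PSI-F grafts and 1.91 and 1.83 in day 3 PSI and PSI-F grafts, against 6.13 in the Diabetic and 9.05 in the Control biopsy (difference -5.78 ± 0.70, SE; adjusted p = 0.0125). The grafts were all at background while the biopsies differed from each other, and the call was lost without either graft of day 1 (adjusted p up to 0.0618). Tgm3, a transglutaminase of the hair and epidermis, fell by 2.66, Spink12, a protease inhibitor, by 2.80, Tent5b, a poly(A) polymerase, by 2.90 and Pard6b, a polarity protein of epithelia, by 1.86. Tent5b, Pard6b and Gm10229 were stable. Gm10229 begins at position 89015277 of chromosome 16, within the span of the Krtap genes described above. In that span 8 of 26 measured genes were called lower, against 0.687% of all genes. Ereg, epiregulin, an EGF receptor ligand, fell by 1.83, and Map3k6 by 1.76, with adjusted p of up to 0.106 and 0.120 with an array left out. Ereg was the only call over both days among 27 angiogenic factors and receptors. Smad7, the inhibitor of TGF-beta signalling, had 5.03 to 5.44 in grafts against 6.90 in the Diabetic and 6.59 in the Control biopsy, fell by 1.48 and was stable (chosen after its value was seen). Of 12 melanocyte genes Tyrp1, an enzyme of pigment synthesis, was called lower, by 1.59, where 0.687% of all genes were. Tyrp1 was not stable (adjusted p up to 0.133). Dct, Pmel and Tyr differed by -1.75, -1.66 and -1.45 without passing the test. Mlana, also lower on average, did not pass it either (adjusted p = 0.288). Ednrb went the other way, higher by 1.16, and did not pass it (adjusted p = 0.337).

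Genes of iron and oxidative stress split, with 1 called higher and 1 lower, where 2.18% and 0.687% of all genes were. Of 17, Slc11a1, the metal transporter of macrophage phagosomes, was higher by 4.05 and stable, with 6.72 and 6.73 in day 1 PSI and PSI-F grafts and 6.83 and 7.33 in day 3 PSI and PSI-F grafts, against 2.79 in the Diabetic and 2.91 in the Control biopsy. Gclc, the catalytic subunit of glutathione synthesis, fell by 1.45. It had 5.85, 5.68, 6.26 and 5.97 in the PSI day 1, PSI-F day 1, PSI day 3 and PSI-F day 3 grafts, against 7.49 in the Diabetic and 7.29 in the Control biopsy, and lost the call without either graft of day 1 (adjusted p up to 0.0689). Over both days Hmox1 differed by 2.77, Mt1 by 1.67, Mt2 by 1.39 and Fth1 by 1.04, with adjusted p of 0.138, 0.294, 0.169 and 0.0736. On day 3 Hmox1 was called higher (3.84, adjusted p = 0.014).

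Endothelial genes had no call over both days. Of 25 endothelial genes 14 lay above both biopsies in all 4 grafts, where 13.2% of all genes did, with a median of 0.67. On day 1 and over both days 0 were called. On day 3 there were 2 calls, where 2.25% of all genes were called higher. Eng, endoglin, and Tie1, both receptors of endothelium, were called on day 3 (1.14 and 1.22, adjusted p = 0.0415 and 0.0466). Sox18, Egfl7 and Cdh5 differed over both days by 2.02, 0.91 and 0.91 (adjusted p = 0.0776, 0.0550 and 0.151). Without the Control biopsy the list's median was 0.34. Over both days Nrp1, a co-receptor of VEGF, differed by 1.54 (adjusted p = 0.0595). On day 3 it was called higher (1.93, adjusted p = 0.0164), the only angiogenic factor or receptor called on either day. Hbegf, Jag1, Thbs1 and Pdgfc differed over both days by -1.16, -0.88, 0.97 and 0.86 without passing the test. Aplnr, the apelin receptor, overlapped because the Control biopsy had 6.59 and the Diabetic biopsy 3.22, against 6.46 to 8.23 in grafts.

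Several tissues showed no calls at all. Of 29 genes of adult skeletal muscle 0 were called, with a median of -0.12 and bright levels on all arrays (list medians of 9.93 to 11.10 in grafts against 11.49 in the Diabetic and 10.57 in the Control biopsy). Muscle regeneration genes had 1 call in 19, where 2.18% of all genes were called higher. This was Myf6, a myogenic transcription factor, higher by 1.23 and not stable (adjusted p up to 0.102). Ankrd1, a stress protein of muscle, Chrna1, the acetylcholine receptor, Sln, sarcolipin, Myog, myogenin, and Dysf, dysferlin, differed by 3.96, 2.33, 1.61, 1.56 and 1.12 without passing the test. The cell cycle (36 genes, median -0.07), the respiratory chain (31, -0.06), adipocytes (24, 0.09) and interfollicular epidermis (25, -0.28) had 0 calls each. The cell cycle median was 0.40 without the Control and -0.44 without the Diabetic biopsy, so no direction is given for it. T, B and NK cell genes had 0 calls in 18, and the T cell receptor genes Cd3d, Cd3e and Cd3g differed by -0.04, 0.10 and 0.02. Over the lists with 0 calls a miss does not show that levels were equal.

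The 4-fold threshold used in the study was applied to each graft on its own, as a count with no test. From both biopsies at once, 313 probe sets were at least 4-fold higher and 109 lower in the PSI graft of day 1, 352 and 160 in the PSI-F graft of day 1, 274 and 14 in the PSI graft of day 3, and 451 and 148 in the PSI-F graft of day 3. The PSI graft of day 3 had the fewest in both directions. The biopsies themselves differed, with 219 probe sets at least 4-fold higher and 319 lower in Diabetic than in Control.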

How the data were processed

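Each condition had 1 Affymetrix mouse genome array. The authors made the deposited log2 values with RMA, which corrects background, normalizes by quantiles and summarizes each probe set. R 2.15.0 and affy 1.36.0 stand in the submitters' processing notes.

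Of 45101 probe sets, 64 controls were left out. Among the rest, 34945 had 1 gene symbol, 932 several and 9160 none, and the brightest probe set stood for each of 18193 genes. Grafts minus biopsies was fitted with lmFit and eBayes of limma 3.58.1 (R 4.3.3) on the 6 arrays as 2 arms, and the days with a 3-arm fit. P-values were adjusted by Benjamini-Hochberg over 45037 probe sets, with calls under 0.05, and the scripts were tested on simulated data. Named were the 15 largest called genes in each direction, up to 6 members of each list described, 8 genes in each direction between the days and the genes the study names. Members and lists were chosen with earlier results of these data known. Promoters were read from RefSeq. Tables were made with Python, pandas and matplotlib. With 1 array per condition the number of arrays limits the precision.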

Additional observations from a re-analysis of the deposited data

Results flagged for a closer look

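Of 179 named genes and list medians, 9 had 1 graft far from the other 3 by Dixon's criterion for 4 samples. This share is near the 1 in 20 that chance marks, and the 9 are given as a description. In 4 of the 9 this was the PSI graft of day 3. It was lowest for Chil3 (5.67, against 8.60 to 8.93 in the other grafts) and Clec4e (4.95, against 7.34 to 7.60). It was highest for Krtap19-9b (4.83, against 1.76 to 1.84) and Tgm3 (6.37, against 5.19 to 5.29). The PSI-F graft of day 3 was highest for Arg1 (10.49, against 8.64 to 8.92), Il4ra (7.32, against 6.21 to 6.34) and Mmp3 (8.65, against 7.44 to 7.56). The PSI graft of day 1 was lowest for Itga4 (4.84, against 5.13 to 5.19), and the PSI-F graft of day 1 was highest for Prss2 (4.18, against 3.78 to 3.81).

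Ccn3 lay on opposite sides of the biopsies on the 2 days. Neither day's difference from the biopsies passed the test (adjusted p = 0.270 on day 1 and 0.301 on day 3). Both day 3 grafts (5.29 in PSI and 5.64 in PSI-F) lay above both biopsies and both day 1 grafts (3.01 in PSI and a lower value in PSI-F) below them, with 4.80 in the Diabetic and 3.42 in the Control biopsy. The days differed by 2.72, and whether the 2 differences from the biopsies differ was tested only as this difference between the days, which was not called.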

How the results depend on the processing

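None of the 886 called probe sets changed direction in a fit that measured it. With all 10 arrays in the fit 1252 probe sets were called higher and 374 lower, with PSI grafts alone 0 and 0 (2430 and 1542 at an unadjusted p under 0.05), with PSI-F grafts alone 64 and 42, and with terms for day and fibroblasts 348 and 39. The methods' t-test called 3 higher and 1 lower after Benjamini-Hochberg and 2840 and 3045 at its unadjusted threshold. With the mean of a gene's probe sets 414 genes were called higher and 147 lower, and 274 and 22 probe sets were called and at least 4-fold different. Counts under an intensity trend, with or without robust fitting, cyclic loess, 1 probe set per gene, a minimum level and a 2-fold minimum stayed within 1.5 times.

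With each array left out in turn, grafts minus biopsies gave 241 to 2728 probe sets higher and 23 to 2156 lower, day 1 gave 0 to 2784 and 0 to 1818, day 3 gave 0 to 3099 and 0 to 2067, and day 3 minus day 1 gave 0 to 10 and 0 to 16. At 2-fold, 1055, 1120, 1007 and 1480 probe sets were higher than both biopsies in PSI day 1, PSI-F day 1, PSI day 3 and PSI-F day 3, and 340, 671, 146 and 537 lower. Diabetic then had 1761 higher and 2502 lower than Control, and 209 at least 4-fold lower with dim probe sets left out.

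Differences that changed sign belonged to genes that were not called: Pdgfc without Control (-0.0011), Chil1 without Diabetic (-0.18), and Ccn3 without PSI day 1 (0.37), PSI-F day 1 (0.54) or Diabetic (0.69). With 1 array left out Pdgfc ran from -0.0011 to 1.73, Chil1 from -0.18 to 1.12 and Ccn3 from -0.69 to 0.69. Of 176 list medians recomputed, 165 moved by less than the spread between the grafts. No paired analysis was possible because each group holds 1 array and the sample titles give no replicate numbers.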
